A study of Mus musculus with 9 samples.

Results

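The comparison was between the central cornea of C57BLKS/J mice (KS) and that of C57Bl/6J mice (B6), and it used the 6 arrays titled for those strains out of 9 in the series. The labels call the KS cornea thin and give no thickness for B6. All 6 mice were adult males aged 4 months with no treatment or engineered allele named, so strain was the only labelled difference. A 2-mm punch was taken from the middle of each cornea and the 2 punches of a mouse were pooled, so each array stood for 1 mouse and each strain had 3. The remaining 3 arrays, of SJL/J mice (SJL) labelled as having a thick cornea, entered no test of difference. They entered the estimate of spread, the choice of probe sets by mean level and a few levels given as a description. Thickness and strain cannot be told apart in this design, because each strain carried 1 label. A punch holds epithelium, stroma and endothelium together, so fewer cells of a type and less RNA per cell cannot be told apart either.

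The cornea is a clear window made of a stratified epithelium over a collagen stroma, with a single sheet of endothelial cells behind it. The stroma makes up most of the thickness, and its thin, evenly spaced collagen fibrils are kept apart by small leucine-rich proteoglycans such as keratocan, lumican and decorin, which keratocytes secrete. C57BLKS/J is closely related to C57Bl/6J but is known to carry chromosome segments from other stock, chiefly DBA, and to differ from it at the major histocompatibility complex (MHC) on chromosome 17.

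The tissue label was checked against its defining markers, which were present on all 6 arrays. Krt12, the keratin of corneal epithelium, lay between 26364 and 29278 intensity units, and keratocan (Kera) lay between 11129 and 13183. Levels of Col8a2, a collagen of the endothelial basement membrane, were between 3216 and 3740. Every array had Y-linked Eif2s3y at 3279.7 to 4977 and Xist at 4.83 to 5.17, among the lowest intensities. H2-Ea is an MHC class II chain whose gene is known to be silent in the haplotype of C57Bl/6J. It was at 4.49, 4.40 and 4.39 in B6 and at 251, 158 and 200.4 in KS. By the sex-linked genes and H2-Ea, no array of these 2 strains went against its label. Nnt, also read as a label check, did not separate the strains. It was at 2545, 2153 and 2784 in B6 and at 2285, 2552 and 2046 in KS (difference -0.12 ± 0.13).

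Levels were compared as log2(intensity + 10), and a gene was called where limma gave an adjusted p under 0.05 after Benjamini-Hochberg adjustment over all probe sets tested. Of 22519 probe sets, 1286 were called, which is 5.71%, with 655 higher and 631 lower in KS. Read at 1 probe set per gene, the interferon-induced list held 90 tested genes, of which 66 were called, all lower in KS, with a median difference of -1.56. Those genes are left out of the counts of called genes that follow. They stay in counts of probe sets and of genes high on 1 array, in levels of whole lists and in correlations. Among the other 10866 genes, 619 were called, which is 5.7%, and 371 of these were higher in KS (3.41% of the genes tested) while 248 were lower (2.28%). The median difference over all 10866 genes was 0.02 on the log2 scale. Of the called genes, 147 were at least 2-fold higher and 116 at least 2-fold lower, and 118 differed by less than 1.5-fold. In all 619 the 3 KS arrays lay wholly on 1 side of the 3 B6 arrays. Genes that were not called, such as Krt12 and Kera, also did so, and the share over all genes is not given here. Array 3 of KS also carried retinal transcripts, which are described further on. Leaving that array out kept the call of 352 of the 619. The sign of all 619 was kept too, which the lack of overlap fixes in advance.

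The largest differences were genes measured well in B6 and at the lowest intensities in KS. By the criterion of a mean under 16 in one strain and of 100 or more in the other, 12 genes read low in KS and 3 in B6. Whether these low readings are of level or of sequence under the probes was not tested. Of the 12, Pbp2, Klra8, Ripply3, Adh6a, Pgm5 and Dppa5a had no other tested probe set. Emb, Cbs and Ppp1r3e each had 1 other, also called lower. Pbp2, a phosphatidylethanolamine-binding protein, was at 3443, 2841 and 1837 in B6 and at 4.97, 4.98 and 4.94 in KS. The 3 B6 mice were thus far above the 3 KS mice, which did not rise above the lower end of the scale, and the difference was -7.46 ± 0.20 (SE, n = 3 per strain, adjusted p = 1.76e-07). Klra8, an activating receptor of natural killer cells that is known to be missing from the genomes of some strains, was at 942, 785 and 992 in B6 and at 5.66, 5.39 and 5.19 in KS. Its probe set is of a type that can bind several related sequences, and the B6 signal came in tissue whose natural killer cell markers Ncr1 and Nkg7 ranged only from 4.16 to 4.59 over the 6 arrays. Ripply3, a transcriptional corepressor of T-box factors, was at 1098, 468 and 892 in B6 and at 4.12, 4.10 and 4.83 in KS (difference -5.77 ± 0.30, adjusted p = 9.31e-06).

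Several enzymes were in the same group. Adh6a, an alcohol dehydrogenase, was at 1036, 891 and 813 in B6 and at 10.2, 10.1 and 9.86 in KS, a difference of -5.52 ± 0.10. Pgm5, a relative of phosphoglucomutase found at cell adhesion sites, was at 591, 399 and 624 in B6 and at 4.88, 6.73 and 4.30 in KS. Cystathionine beta-synthase (Cbs), which joins homocysteine and serine in the transsulfuration pathway, was at 127, 168 and 239 in B6 and at 4.58, 4.70 and 4.54 in KS. None of these 3 genes overlapped between the strains, as held for every called gene. The urea cycle enzyme Cps1 fell from 282, 580 and 522 in B6 to 15.2, 34.8 and 17.8 in KS, and glycine decarboxylase (Gldc) differed by -3.08, from 2124 ± 258 in B6 to 244 ± 44.3 in KS (SD, n = 3). Ppp1r3e, which targets a phosphatase to glycogen, differed by -3.90 ± 0.19, and its other tested probe set differed by -3.45.

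Ooep and Dppa5a, which are known from oocytes and from pluripotent cells, were neighbours in the order of tested genes on chromosome 9 and were lower together. Ooep was at 1860, 1963 and 2512 in B6 and at 50.3, 85.1 and 85.8 in KS, and Dppa5a was at 265, 268 and 389 in B6 and at 7.66, 4.45 and 5.87 in KS. The differences were -4.68 ± 0.29 and -4.29 ± 0.21. Embigin (Emb), a membrane partner of monocarboxylate transporters, was at 228, 274 and 380 in B6 and between 4.40 and 4.61 in KS, and its second probe set was also called, with -1.44. Palmdelphin (Palmd), a protein of the cell cortex, differed by -3.73 ± 0.38, with the KS arrays between 23.7 and 54.7 and the B6 arrays between 540.1 and 819.5.

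The genes most raised in KS spanned a channel, signalling proteins, transcription factors and a surface protein of stratified epithelium. The uncharacterised transcript 6330403K07Rik was at 4.70, 4.58 and 4.57 in B6 and at 281, 369 and 475 in KS, the largest positive difference among called genes (4.69 ± 0.16, adjusted p = 8.75e-07). Lce3f, a late cornified envelope protein, was at 43.6, 20.8 and 32.9 in B6 and at 463, 951 and 756 in KS, and E4f1, a zinc finger transcription factor, was at 18.1, 17.4 and 15.9 in B6 and at 348, 443 and 371 in KS. All KS values of these 3 genes stood above all B6 values, as in every gene called higher. Mecom, which encodes a zinc finger transcription factor with a role in stem cell maintenance, was measured in both strains, at 440.2, 306 and 181 in B6 and at 3065, 2651 and 2816 in KS (difference 3.24 ± 0.41, adjusted p = 0.002).

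Trpm6, a magnesium channel joined to a kinase, was at 16.3, 22.3 and 16.1 in B6 and at 333, 312 and 346 in KS. Pla2g5, a secreted phospholipase A2, was at 29.9, 29.3 and 47.1 in B6 and at 398, 374 and 344 in KS, and Plbd1, a phospholipase B-like protein, differed by 3.65 ± 0.20. Lpar2, a receptor for lysophosphatidic acid, was at 12.7, 14.98 and 22.8 in B6 and at 249, 297 and 161 in KS. The enzymes and the receptor thus include 3 genes tied to phospholipids, a grouping made after the values were seen. The second probe sets of Lpar2 and of Tmem242 leaned the other way without being called, at -0.44 and -0.33, so these genes depend on the probe set that was read. The KRAB zinc finger gene Zfp354a differed by 2.84 ± 0.24.

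**Figure D1:**
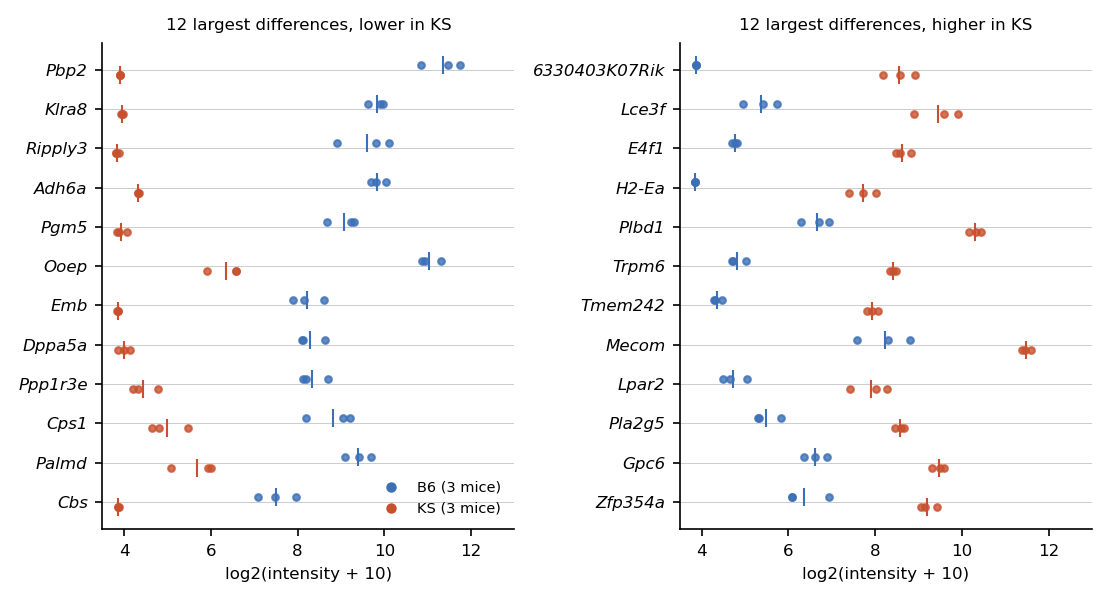
Intensity of the 12 genes with the largest negative (left) and positive (right) differences between KS and B6, as log2(intensity + 10). Each point is 1 mouse and each short vertical bar is the mean of 3 mice. No gene shown has overlapping strains, as in every called gene. The lower end of the scale holds the KS points of Pbp2, Klra8 and Cbs and the B6 points of 6330403K07Rik and H2-Ea.

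SJL levels of the same genes split between those of the other strains. Pbp2, Klra8 and Cbs lay at 4.98 ± 0.03, 5.63 ± 0.07 and 4.57 ± 0.01 in SJL, near the KS levels. Adh6a and Pgm5 lay at 653 ± 40.5 and 338 ± 35.9, on the side of B6. Among the genes higher in KS, Plbd1 was at 1339.9 ± 259.7 and E4f1 at 497 ± 90.8 in SJL, while 6330403K07Rik and Mecom were at 4.64 ± 0.02 and 453 ± 221. Levels near those of KS, near those of B6 and in between were therefore all present.

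The structural genes that make up most of the stroma did not pass the test. Col1a1, a chain of the main fibril collagen, was at 8706, 8976 and 11945 in B6 and at 9201, 12174 and 11562 in KS, with a difference of 0.16 ± 0.18 (adjusted p = 0.679). Col5a1, which limits fibril diameter, differed by 0.30 ± 0.28, and lumican (Lum) by 0.06 ± 0.09. The strains overlapped for each of these genes. Decorin (Dcn) was at 15442, 15417 and 15560 in B6 and at 16804, 19066 and 18638 in KS, without overlap. Its difference of 0.23 ± 0.08 had an adjusted p of 0.175. In 2 of 19 settings it was called, by limma with an intensity trend (adjusted p = 0.0349) and with the mean of all probe sets (0.0472). Kera differed by -0.11 ± 0.08, with all KS arrays below all B6 arrays, and was not called. Zfp469, whose human counterpart is a brittle cornea gene, was not tested because it lay between 5.65 and 9.89 on all 6 arrays.

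Of 25 tested collagen genes, 4 were called, all higher in KS. That is 16%, against 5.7% called over all genes and 3.41% called higher. The median difference was 0.17 against 0.02 for all genes. The strains overlapped over the whole list. Its mean log2 level was 7.89 to 8.38 in B6 and 8.28 to 8.44 in KS, with B6 array 3 inside the KS range, and its summed intensity was 50356 to 68029.7 in B6 and 57304 to 65931 in KS. On B6 array 3 the 3' control probes exceeded the 5' probes most, and the part of RNA quality in this list was not tested. The 4 called genes were minor collagens of this tissue. Col3a1, a fibril collagen of vessels and wounds, was at 10.98, 7.45 and 46.3 in B6 and at 85.4, 119 and 81.5 in KS (difference 1.93 ± 0.40, adjusted p = 0.0267). Col25a1, a transmembrane collagen, was at 21.0, 19.7 and 26.0 in B6 and at 70.9, 89.1 and 117 in KS (1.65 ± 0.19, adjusted p = 0.00146). The other transmembrane collagen, Col23a1, differed by 0.98 ± 0.22, and Col7a1, which forms the anchoring fibrils under the epithelium, by 0.77 ± 0.17. No array of KS overlapped B6 in these 4 genes, as in every called gene, but the count ran from 1 to 6 when any 1 array was left out.

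Among 31 tested proteoglycans and keratan sulfate enzymes, 3 were called, all higher, with a median of 0.06. The share was 9.68%, against 5.7% called over all genes and 3.41% called higher. Glypican 6 (Gpc6), a heparan sulfate proteoglycan anchored to the cell surface, was at 87.7, 72.4 and 109 in B6 and at 759, 708 and 628 in KS (difference 2.84 ± 0.25, adjusted p = 0.000215). Its 2 other tested probe sets were also called higher, with 1.21 and 2.56. Syndecan 2 (Sdc2), another heparan sulfate proteoglycan, was at 1584 ± 86.2 in B6 and 2286 ± 188 in KS. Osteomodulin (Omd), a keratan sulfate proteoglycan, was close to the lowest intensities in B6, at 6.19, 4.15 and 5.85, and at 16.5, 25.1 and 43.4 in KS. The 2 larger differences were thus at the cell surface and in a rare proteoglycan, while the abundant stromal ones are those given above.

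Proteins that remodel or line the matrix held 4 called genes of 29, all higher in KS, with a median of 0.18. The share was 13.8%, against 5.7% called over all genes and 3.41% called higher. Mfap4, a microfibril-associated protein, was at 959, 1326 and 1466 in B6 and at 2214, 3061 and 3047 in KS. Fibulin 1 (Fbln1), an elastic fibre and basement membrane protein, was at 248, 208 and 275 in B6 and at 499, 478 and 498 in KS. Periostin (Postn), a matricellular protein of wound healing, differed by 1.00 ± 0.21, and the matricellular protein Ccn4 differed by 1.19 ± 0.23 from a B6 mean of 8.89. Between 2 and 4 of these were called when 1 array was left out.

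Collagen-modifying enzymes had a median difference of 0.20, and 4 of 22 differences were negative. At an unadjusted p under 0.05, 7 were higher and 1 lower, and 3 were called (13.6%, against 5.7% over all genes). Of these, Fkbp14, a prolyl isomerase of the endoplasmic reticulum, and P4ha1, a collagen prolyl hydroxylase subunit, were higher by 0.56 ± 0.12 and 0.42 ± 0.10, and Colgalt1, which adds galactose to collagen hydroxylysine, was lower by -0.51 ± 0.12. With any 1 array left out, 0 to 1 members of the list were called higher and 0 lower. Among 46 tested genes near human loci for corneal thickness or keratoconus, 2 were called, both higher, with a median of -0.03. Transforming growth factor beta 2 (Tgfb2) was at 137, 141 and 127 in B6 and at 222, 327 and 315 in KS (1.02 ± 0.22, adjusted p = 0.0319), and the splicing factor Cwc27 differed by 0.48 ± 0.11. That is 4.35% of the list, against 5.7% of all genes, a share near the background. Without any 1 array the count was 0 to 2, and the call of Tgfb2 was lost in 8 of 18 settings and that of Cwc27 in 14 of 19.

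**Figure D2:**
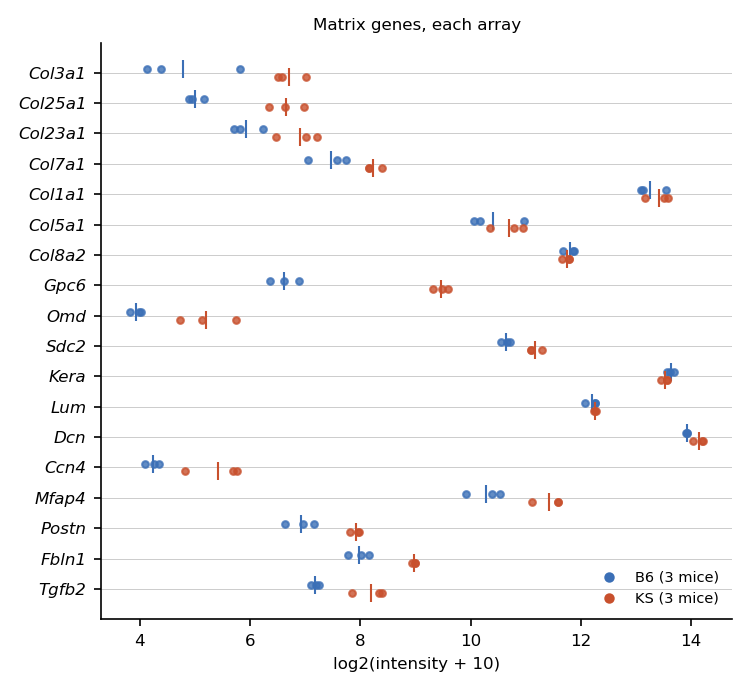
Intensity of 18 matrix genes in each KS and B6 mouse, as log2(intensity + 10), with points for mice and vertical bars for strain means. The abundant genes Col1a1, Col5a1, Col8a2 and Lum overlap between strains, while Gpc6 and Col25a1 stand apart.

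Markers of the corneal cell types were called at shares near or below the 5.7% over all genes. Of 27 tested epithelial markers 1 was called, higher in KS (3.70%), and of 27 keratocyte markers 1 was higher and 1 lower (7.41%). Of 15 endothelial markers 0 were called by limma, with 3 at an unadjusted p under 0.05, all higher in KS. With an intensity trend or with array weights, 1 and 2 were called. Of the 15 differences 12 were positive, and the median was 0.20 against 0.02 for all genes. The mean log2 level of the endothelial list overlapped, at 10.47 to 10.69 in B6 and 10.67 to 10.78 in KS. The epithelial gene was Muc1, a membrane mucin of the ocular surface, at 432, 208 and 175 in B6 and at 1024, 733 and 1191 in KS (1.90 ± 0.40, adjusted p = 0.0304). Its call was lost in 7 of 19 settings, among them all fits without 1 array other than the one without B6 array 1, with adjusted p of 0.0607 to 0.116 in those fits. The keratocyte genes were Omd and Aldh1a3, an enzyme of retinoic acid synthesis that was lower by -0.48 ± 0.11.

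Markers of conjunctiva and limbus, the tissues around the cornea, held 6 called genes of 15 tested, 5 higher and 1 lower, with a median of 0.21, beside 5.7% called over all genes. Connexin 30 (Gjb6) was at 115, 76.2 and 88.0 in B6 and at 644, 385 and 451 in KS (2.27 ± 0.20, adjusted p = 0.000236). Keratin 18 (Krt18), a keratin of simple epithelia, was at 108, 101 and 104 in B6 and at 415, 390 and 399 in KS. Lactoferrin (Ltf), an antimicrobial protein of tears and glands, was at 88.9, 15.3 and 43.8 in B6 and at 274, 397 and 120 in KS. The antimicrobial whey-acidic protein Wfdc2 and the glutathione transferase Mgst1 were higher by 0.59 and 0.97. Keratin 4 (Krt4), of non-keratinised mucosa, went the other way, from 154, 56.8 and 112 in B6 to 11.9, 6.90 and 38.1 in KS.

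The list's mean log2 level was 7.48 to 7.79 in B6 and 7.89 to 8.03 in KS, without overlap, while its summed intensity overlapped. The sum ran from 37061 to 46555 in B6 and from 34841 to 38513 in KS, and the conjunctival keratin Krt13 was between 11014 and 13091 on all 6 arrays, with a difference of 0.01. The goblet cell markers Muc5ac, Tff1 and Tff3 lay between 3.89 and 4.47 on every array. The part that surrounding tissue played in the called genes was not tested. The count of higher members was 3 to 4 when any 1 array was left out.

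Junction genes were called at a share near that of all genes, 6.98% against 5.7%. Of 43 tested, 2 were higher and 1 lower: besides Gjb6, desmoglein 2 (Dsg2) was higher by 0.72 ± 0.12, and connexin 26 (Gjb2), whose gene is next to Gjb6 in the order of tested genes, was lower, at 7388 ± 426 in B6 and 4901 ± 236 in KS. Neighbouring connexin genes thus went in opposite directions. For Dsg2 the other 5 probe sets all leaned higher and 3 were called, and one of them was at 5.27, 5.35 and 4.42 in B6 and at 154, 158 and 136 in KS. Of 23 keratinisation genes 4 were called (17.4%, against 5.7% of all genes). The kallikrein proteases Klk8, Klk10 and Klk11 were lower by -1.27, -0.74 and -0.44, and the protease inhibitor Cst6 was higher by 0.78. These are calls near the threshold, and between 0 and 2 of the lower ones were made without 1 array.

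**Figure D3:**
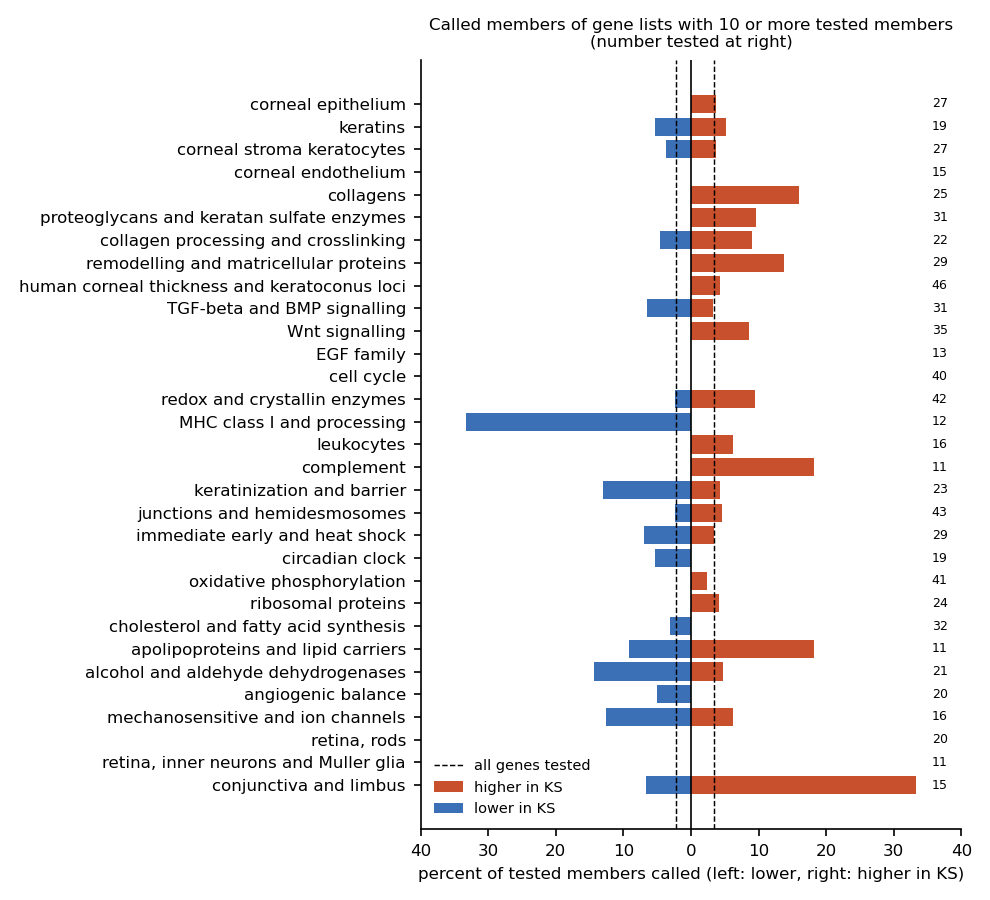
Percent of tested members called higher (right, red) or lower (left, blue) in KS, for the 31 gene lists with 10 or more tested members, with interferon-induced genes left out. Dashed lines mark 3.41% and 2.28%, the shares over all genes tested, and the number tested is at the right. Conjunctiva and limbus reaches farthest to the right and MHC class I farthest to the left.

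Signalling lists held 0 to 3 called genes each. Of 31 tested genes of transforming growth factor and bone morphogenetic protein signalling, Tgfb2 was higher and 2 were lower (9.68% called, against 5.7% of all genes). Follistatin (Fst), which binds and blocks activins, was at 565, 998 and 661 in B6 and at 144, 63.98 and 69.98 in KS (-2.91 ± 0.34, adjusted p = 0.00141), and the ligand Bmp6 differed by -1.24 ± 0.25. Of 35 Wnt pathway genes, 3 were higher (8.57% called): the secreted inhibitor Sfrp2 (1.40 ± 0.30), the receptor Fzd1 (0.50 ± 0.10) and the ligand-processing enzyme Porcn (0.45). The Wnt list held 0 to 1 called genes without any 1 array. Of 13 genes of the epidermal growth factor family 0 were called by limma and 4 had an unadjusted p under 0.05, and up to 3 were called in other settings.

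Cell cycle genes leaned lower in KS without a call. Of 40 tested, 0 were called by limma and 3 had an unadjusted p under 0.05 (up to 2 were called in other settings), but 38 had a negative difference, and the median was -0.22. Mcm5, a subunit of the replicative helicase, differed by -0.96 and Ccnd2, a G1 cyclin, by -1.28. The mean log2 level of the list was 9.51 to 9.94 in B6, highest on B6 array 3, and 9.33 to 9.45 in KS. On B6 array 3 the 3' control probes of Gapdh also exceeded the 5' probes most, by 1.55 on log2 against 0.73 to 0.93 on the other 5 arrays, and the part of RNA quality in this list was not tested.

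Immediate early and heat shock genes, which respond within minutes to handling, also leaned lower, with 25 of 29 differences negative and a median of -0.30. Atf3, a stress-induced transcription factor, was at 60.6, 89.1 and 21.5 in B6 and at 4.83, 5.01 and 13.97 in KS (-1.79 ± 0.38), and Nr4a2, an orphan nuclear receptor, was lower by -0.49. The small heat shock protein Hspb8 was higher, at 4.65, 4.53 and 4.53 in B6 and at 40.1, 43.1 and 39.1 in KS (1.80 ± 0.07, adjusted p = 2.17e-06). The list's mean log2 level was 10.44 on KS array 3, within the B6 range of 10.36 to 10.57, and 10.06 and 10.07 on KS arrays 1 and 2. Leaving out 1 array gave between 0 and 6 lower members.

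Metabolic genes were called in both directions. Of 11 tested apolipoproteins and lipid carriers, 2 were higher and 1, Apol7a, was lower (27.3% called, against 5.7% of all genes). Apolipoprotein E (Apoe), a lipid carrier, was at 2684, 2764 and 1921 in B6 and at 4838, 6147 and 5011 in KS, and Apoc1, the next tested gene on chromosome 7, was at 492, 821 and 723 in B6 and at 1360.5, 1176 and 1440.2 in KS. These 2 neighbours were higher by 1.13 ± 0.16 and 0.98 ± 0.19. In SJL the same genes were at 428 ± 27.3 and 7.28 ± 1.72, below both other strains. Among 42 redox and crystallin enzymes, 4 were higher and 1 lower (11.9% called, against 5.7% of all genes). The aldehyde dehydrogenase Aldh2 was at 2817 ± 253 in B6 and 4428 ± 399.9 in KS with its 2 other probe sets also called. Among 21 tested alcohol and aldehyde dehydrogenases it was the only one called higher. There Adh6a, Adh7 and Aldh1a3 were called lower, and the median was -0.17 (19.0% called). The mean log2 level of that list was 9.17 to 9.34 in B6 and 8.84 to 8.90 in KS. With 1 array left out, 1 to 4 of its members were called lower.

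Of the ribosomal and respiratory lists 1 gene each was called, 4.17% and 2.44% against 5.7% of all genes. The ribosomal protein gene Rpl14 was the only one called of 24, at 924, 1012 and 924 in B6 and at 3022, 2878 and 2913 in KS (1.61 ± 0.10, adjusted p = 3.82e-05). Of 41 genes of oxidative phosphorylation, Uqcrq was higher by 0.77 ± 0.16. Of 16 tested channels 3 were called (18.8%, against 5.7% of all genes). Trpv4, a cation channel that opens on swelling, and Scnn1a, a subunit of the epithelial sodium channel, were lower by -1.11 and -1.10, and the chloride channel Ano1 was higher by 1.27. Of 11 complement genes 2 were called (18.2%). These were the complement inhibitors Cd55 and Cd59a, which protect cells from complement on their surface and were higher by 1.89 and 0.78.

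Of 16 tested leukocyte markers 1 was called (6.25%, near the 5.7% of all genes). Aif1, a calcium-binding protein of macrophages, was at 11.3, 8.71 and 8.78 in B6 and at 54.3, 91.0 and 40.5 in KS (1.82 ± 0.22). The pan-leukocyte marker Ptprc ranged from 4.47 to 5.37 over the 6 arrays, and the macrophage genes Csf1r and Cd68 differed by -0.03 and 0.32. The strains met at the edge of their ranges over the whole list. Its summed intensity was 4065 to 4598 in B6 and 4599 to 5889 in KS, without overlap, and its mean log2 level was 4.84 to 4.97 in B6 and 4.97 to 5.17 in KS, with overlap. S100a9, a neutrophil and epithelial calcium-binding protein, was at 36.4, 6.56 and 40.3 in B6 and at 183, 564 and 88.3 in KS, with an adjusted p of 0.051.

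MHC class II genes, which present peptides to helper T cells, went both ways within a single neighbourhood of chromosome 17. Of 8 tested, 3 were higher and 2 lower in KS (62.5% called, against 5.7% of all genes). H2-Ea was higher by 3.86 ± 0.14, and its neighbour H2-Eb1, the partner chain, was at 122, 93.1 and 111 in B6 and at 32.7, 51.4 and 25.6 in KS (-1.38 ± 0.20). H2-DMb2 and H2-DMa, which load peptides onto class II molecules, were higher by 1.92 ± 0.34 and 0.97, and H2-Ab1 was lower by -0.79. The invariant chain Cd74 and H2-Aa were not called. Among class I genes, 4 of 12 were lower (33.3%), with H2-T24 at -2.31 and beta-2 microglobulin (B2m) at -0.91. The other 2 were H2-K1 and H2-D1, and H2-D1 had another probe set called higher. With interferon-induced genes kept in, the class I list held 17 tested genes and 6 were lower, with Nlrc5 and Tap1 added. Whether the 4 genes were lower apart from the interferon-induced genes was not tested.

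Class II genes share promoter elements, of which the Y box, an inverted CCAAT box, is one. The RefSeq promoter table held 4 of 7 class II genes sought, from 250 bases before to 50 after the start, in the build GRCm38.p6. Of these, 2 are printed because their genes went in opposite directions in the same neighbourhood: H2-Eb1 at chr17:34305617-34305916 and H2-DMb2 at chr17:34144999-34145298, both on the plus strand. Capitals mark GATTGG, or CCAATC where it lies on the other strand.
H2-Eb1: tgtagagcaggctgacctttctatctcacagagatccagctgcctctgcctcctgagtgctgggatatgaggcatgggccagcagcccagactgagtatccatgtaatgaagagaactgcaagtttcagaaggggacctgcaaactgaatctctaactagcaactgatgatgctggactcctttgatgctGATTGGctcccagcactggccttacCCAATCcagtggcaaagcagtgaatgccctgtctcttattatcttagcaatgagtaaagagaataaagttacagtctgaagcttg
H2-DMb2: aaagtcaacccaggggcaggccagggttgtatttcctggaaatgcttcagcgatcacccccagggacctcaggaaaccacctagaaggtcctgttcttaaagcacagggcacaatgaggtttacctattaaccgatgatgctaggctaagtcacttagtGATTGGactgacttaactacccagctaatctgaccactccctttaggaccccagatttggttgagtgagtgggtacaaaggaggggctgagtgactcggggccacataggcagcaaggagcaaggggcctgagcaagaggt
The first match began at -60 in H2-Eb1 and at -91 in H2-DMb2, counted from the start. The letters occurred on either strand in 16.1% of 32851 promoters of the same length. Both sequences are those of the reference genome, which is of the B6 strain, and neither strain's promoter was measured here. Rfxank, a subunit of the factor that binds the neighbouring X box, was on chromosome 8 and higher in KS by 0.54, at 117 ± 18.2 in B6 and 175 ± 9.12 in KS.

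Different probe sets of a gene did not always give the same answer. Of the 619 called genes, 222 had other tested probe sets, and in 185 of these all of them had the same sign. A called difference in the opposite direction occurred in 3 genes, H2-D1, Pgpep1 and Ube2d-ps. The brightest probe set of the class I gene H2-D1 was lower by -0.57, but another was at 5.28, 5.23 and 5.22 in B6 and at 4064, 5751 and 4836 in KS, a difference of 8.31. For Pgpep1, a pyroglutamyl peptidase, one probe set was higher by 1.25 and another lower by -1.32. Whether such differences are of level or of sequence under the probes was not tested.

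The share of genes called varied between chromosomes, as a description with no test. Chromosome 17 had the highest share, with 64 of 523 tested genes called (12.2%), and chromosome 18 the lowest, with 2.44%. Read in gene order, windows of 30 consecutive tested genes with 9 or more called genes formed 5 stretches on chromosomes 6, 7, 8 and 17. The stretches held 204 genes, of which 64 were called, a share that the window rule itself sets. Inside them 31 genes were higher and 33 lower in KS. Adjacent called genes shared a direction in some cases, such as Vps52 and H2-K1 (-1.42 and -0.54), and not in others, such as H2-Eb1 and H2-Ea. The median size of a called difference was 0.96 inside and 0.90 outside.

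The stretch near the distal end of chromosome 6 ran from Clec2g to Sspn and held 16 called genes of 52, among them Pbp2, Klra8, Plbd1 and Mansc1. Eps8, which regulates actin capping, was at 2393 ± 53.8 in B6 and 896 ± 16.2 in KS, and the heme-binding protein Hebp1 was at 111 ± 34.3 and 423 ± 27.3. The first stretch of chromosome 17, from Zfp943 to Noxo1, held 13 of 41, led by E4f1, Zfp994, Paqr4 and Noxo1. The second ran from Kank3 to H2-Ea and held 11 of 27, led by H2-Ea, H2-DMb2, Vps52 and H2-Eb1. Vps52, a subunit of a Golgi tethering complex, was at 196, 214 and 302 in B6 and at 72.3, 91.9 and 79.4 in KS.

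On chromosome 8 the stretch from Smim31 to Haus8 held 14 called genes of 51. Slc25a42, a mitochondrial carrier of coenzyme A, was at 43.2, 22.6 and 32.0 in B6 and at 165, 183 and 171 in KS, and Smim31 was higher by 1.38 ± 0.11. On chromosome 7 the stretch from Mical2 to Dcun1d3 held 10 of 33. In it Cyp2r1, a vitamin D 25-hydroxylase, was lower by -1.50 ± 0.16, at 41.5, 43.1 and 32.1 in B6 and at 6.55, 7.47 and 7.53 in KS, while its neighbour Sox6, a transcription factor, was higher by 1.38 ± 0.21. Just under the limit of 9, the fullest windows of chromosomes 3, 9, 10 and 11 held 8 called genes. The one on chromosome 3 included Adh6a, Adh7 and Gstcd, and the one on chromosome 9 included Ooep and Dppa5a.

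**Figure D4:**
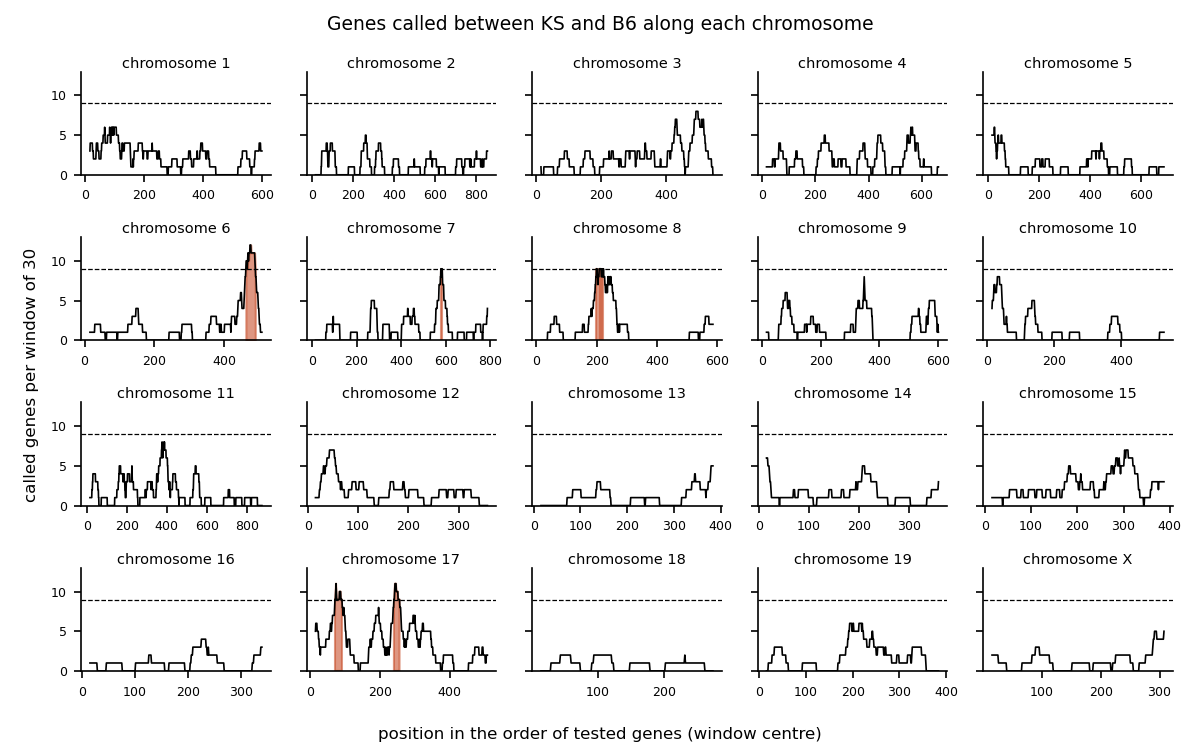
Number of genes called between KS and B6 in each window of 30 consecutive tested genes, by position in the gene order of each chromosome, with interferon-induced genes left out. The dashed line marks 9, and red marks windows at or above it, on chromosomes 6, 7, 8 and 17.

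KS array 3 carried retinal transcripts. Rod transducin (Gnat1), the G protein of phototransduction, was at 5.195, 9.39 and 4.72 in B6 and at 5.06, 4.92 and 2108 in KS. The rod proteins arrestin (Sag), the phosphodiesterase inhibitory subunit Pde6g and recoverin (Rcvrn) were at 1326, 720 and 456 on KS array 3, and at no more than 12.0, 4.56 and 4.55 on the other 5 arrays. The photoreceptor transcription factors Crx and Nrl were at 114 and 261 on that array and at no more than 5.11 and 4.28 on the other 5. One array alone was thus high, and the other KS mice were at the B6 level.

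Over the 37 rod markers on the array, the mean log2 level was 7.05 on KS array 3 and 4.80 to 4.82 on the other 5. On KS array 3, 22 of the 37 were at least 2-fold above the highest of the other 5 arrays and 11 were below 16. Of 11 cone markers 1 was raised in this way, of 31 markers of inner neurons and glia 4, and of 15 of the pigment epithelium 2. Across all tested genes, interferon-induced ones included, 38 stood at least 2-fold above the other 5 arrays on KS array 3. The same count was 1 to 17 on each of the others. Some of the 38, such as Pde6g, Rcvrn and Nrl, were tested only because KS array 3 raised their mean level. The count of 38 is thus set in part by the array being judged. Of the 24 that were at least 4-fold above, 15 were on the retina lists. Others, such as the microRNA-124 host transcripts Mir124-2hg and Mir124a-1hg, the neuronal factor Neurod1 and Tub, are known from retina or nervous tissue.

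Of the 38 genes, 0 were called by limma between KS and B6, and 4 had an unadjusted p under 0.05. They were picked as high on 1 KS array alone, which widens the spread within KS and works against a call. Without that array the log2 difference of 0 of the 619 called genes changed by a factor of more than 1.5. The median shift was 0.04 on the log2 scale, and 30 other genes became called. A call needs a small spread within strains, so small shifts of called genes were largely set in advance. Neither count can tell how far the retinal transcripts affected the comparison. The number called without the array, 382, came from 2 KS mice in place of 3.

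**Figure D5:**
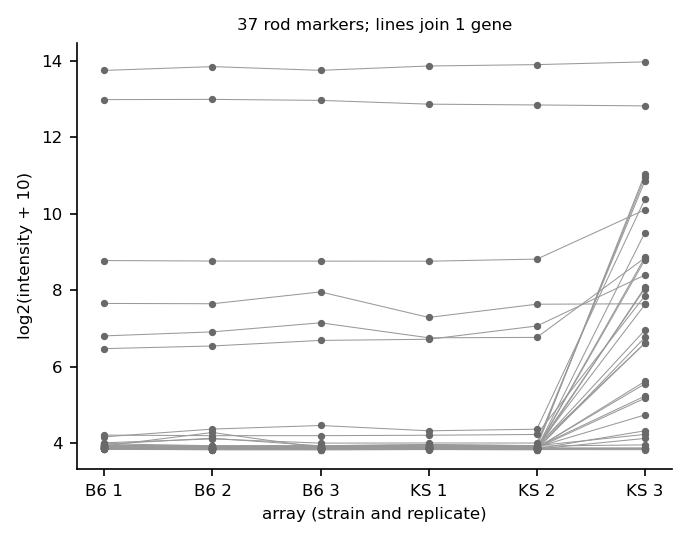
Level of 37 rod markers on each of the 6 arrays, as log2(intensity + 10), with a line for each gene. On KS 3 the mean is 7.05 against 4.80 to 4.82 on the other arrays, and Gnb1 and Prom1 are the genes near the top on every array.

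The arrays of a strain resembled each other more than those of the other strain. Pearson correlations over tested probe sets were 0.992 to 0.994 within KS, 0.986 to 0.992 within B6 and 0.968 to 0.980 between them, as a description with no test. The median SD of a gene on the log2 scale was 0.15 in B6 and 0.11 in KS. Array number is the limit on precision, and no depth applies to these values.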

How the data were processed

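Central corneal RNA, treated with DNase and column-purified per the labels' protocols, was measured on 9 Affymetrix arrays. The authors deposited probe set intensities on a linear scale, and the summary, background correction and scaling behind them are not given in the sources used here. Intensities ran from 3.39 to 37501, the arrays' upper quartiles spanned 380.4 to 398, and no detection calls were used, so values near the lower end are upper bounds. Log2(intensity + 10) was analysed, which understates differences of low genes. Of 45037 non-control probe sets, 34945 had 1 gene symbol, 932 several and 9160 none, and listed genes without a probe set of 1 symbol were not analysed here. The test left out non-control probe sets in the lower part (under the median) of mean levels. A gene was read at its brightest single-symbol probe set, by the mean of 9 arrays. Gene order and promoters came from RefSeq tables of GRCm38.p6.

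In limma 3.58.1 with R 4.3.3, 1 mean per strain was fitted to 9 arrays and KS was compared with B6, two-sided, with Benjamini-Hochberg adjustment over 22519 probe sets and a threshold of 0.05. The fit was checked on simulated data. An exact permutation test of 3 against 3 cannot go below 0.1 and was not used. The labels do not say whether the mice shared a litter or a processing day. Named genes were the 12 highest and 12 lowest differences, the leading called members of each list (up to 2, or 4 for matrix lists and human loci, and the brightest members where none was called), up to 4 genes per stretch, and a fixed set of corneal and retinal markers. Genes named beyond that rule were chosen after their values were seen. The comparison, lists and rules were chosen with earlier results of these data known.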

Additional observations from a re-analysis of the deposited data

How the results depend on the processing

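The 1286 probe sets, 619 genes, 68 called members of the gene lists and 64 genes of the stretches depended on filter and test. Without a filter on low values the counts were 838, 398, 35 and 40, and with a stricter filter at the 70th percentile they were 742, 403, 41 and 38. Testing against a fold of 1.2 gave 641, 273, 23 and 34. Array weights, whose estimation stopped before it converged, gave 2232 probe sets and 1140 genes. Leaving out 1 array gave 748 to 1073 probe sets, 338 to 495 genes, 32 to 52 list members and 39 to 50 stretch genes, and the lowest gene counts came without KS replicate 2 (338) and KS replicate 3 (382). The gap of the rod markers on KS array 3 was 2.22, and it was 2.88 with a pseudocount of 1 and 2.20 after quantile normalization. The cause of these shifts was not tested. Normalization, centring, pseudocount, intensity trend, plain probe sets, the mean of all probe sets and the 6 arrays alone kept the gene count between 487 and 754. Of 86 named called genes, 50 kept their call in each of the 17 to 19 settings that tested them, and 0 changed sign. In the fits without 1 array, the lack of overlap fixes the sign of these genes in advance.

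With replicate numbers as a replicate block, 1124 probe sets and 542 genes were called. Deviations of arrays with the same number correlated at 0.216, 0.162 and 0.061. Those of arrays with different numbers correlated at -0.248 to 0.081. The labels name no batch, so the main fit had no replicate term. Whether same-numbered arrays shared a batch was not tested. The 3 arrays per strain and signal near the lower end of the scale limit the smaller differences.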

Other observations

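Mice of a strain differed from each other in some genes. Of the genes tested, 26 had an SD of 1 or more on the log2 scale in B6 and 42 in KS, where retinal genes of KS array 3 led. Among B6 mice, asparagine synthetase (Asns) was at 1205, 82.9 and 156 and was at 52.2 to 177 in KS, and Aldh18a1, an enzyme of proline synthesis, was at 538, 100.1 and 143. The stress keratin Krt16 was at 47.9, 323 and 38.9 in the same mice, and Tnfaip3, an inhibitor of NF-kB signalling, at 107, 37.5 and 307. B6 array 1 was high for the amino acid enzymes, B6 array 2 for Krt16 and B6 array 3 for Tnfaip3, so no array was the outlier in all of them.

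B6 array 3 was also the lowest array for several widely expressed genes. Smad5, a mediator of bone morphogenetic protein signals, was at 841, 1063 and 182 in B6 and at 940.4, 1053 and 891 in KS, and Taf15, an RNA-binding protein, was at 395, 447 and 88.7 in B6 and at 308, 485 and 407 in KS. Rab27a, a regulator of vesicle transport, was at 335, 228 and 40.5 in B6 and at 558, 434 and 414 in KS. Each of these genes was low on that 1 array only. The same array had the highest 3' to 5' ratios of the control probes, and whether the low values follow from RNA quality was not tested.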
